A study of Mus musculus with 16 samples.

Results

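The 10 genes described here form the regulatory arm of the integrated stress response. They are the transcription factors Atf4, Atf5, Ddit3 (which encodes CHOP), Atf3 and Cebpb, and the effectors Trib3, Chac1, Ppp1r15a (which encodes GADD34), Sesn2 and Ddit4. They were chosen by gene symbol, and are 10 of the 25105 genes in the expression table. All 10 were measured in every library and all 10 passed the filter on low values in every comparison.

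In this response, stress kinases phosphorylate the initiation factor eIF2, which slows protein synthesis in general while favouring translation of a few mRNAs, among them that of ATF4. ATF4 then activates genes for amino acid supply and further transcription factors, including CHOP, and CHOP in turn acts with ATF4 on genes such as Trib3. GADD34 closes the loop, since it brings a phosphatase to eIF2 and restores protein synthesis. Beta cells make proinsulin in large amounts and are known for their dependence on the eIF2 kinase PERK. The data below are RNA levels, and ATF4 is controlled to a large extent in translation, so its RNA is not a measure of its protein.

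Dispersed islet cells from adult Grp78 flox/flox mice were given adenovirus with LacZ (Ad-LacZ, control) or with Cre recombinase (Ad-Cre), and either DMSO or the pan JNK inhibitor JNK-IN-8 from the start, and all cultures were kept for 72 hours in 15 mM glucose. The mice carried no Cre of their own, and the viral Cre is driven by a CMV promoter, which is not restricted to beta cells. The 4 preparations of islets (F1, M1, M2 and F2 in the labels) each gave 1 library in each of the 4 conditions (16 libraries). The labels give 2 animal numbers for each preparation, whereas the study counts 4 mice, so how many animals each preparation holds is not settled. Values are RPKM (reads per kilobase of gene, scaled to the size of the library), and fold changes are on the scale of log2(RPKM + 1) after TMM scaling, which understates the change of low genes.

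Depth, as worked out from the steps between low RPKM values, was 7.73 to 25.46 M reads, the lowest being the Ad-Cre + JNK inhibitor library of F2, whose column name gives another lane than the other 15. These depths reach below the range of raw counts that the study states for its samples. The gene targeted by Cre, Grp78 (listed as Hspa5), was higher in the libraries labelled Ad-Cre (1107 to 1598 RPKM) than in those labelled Ad-LacZ (395 to 483 RPKM). A value for the whole gene does not tell whether the floxed part was lost, so each direction below is stated for the libraries labelled Ad-Cre. The study reports qPCR on parallel aliquots of the sequenced RNA, in which Grp78 was reduced and Grp94 and Calr rose. The sex labels of a pair of preparations went against the sex-linked genes: Xist was 27.1 to 46.4 RPKM in the 4 libraries labelled M2, and Ddx3y was 12.4 to 25.3 RPKM in the 4 labelled F2. The Ad-Cre + JNK inhibitor library of M2 stood apart, with 4479 RPKM of mitochondrial rRNA against 829 to 2487 RPKM in the other 15. As the labels say, these were islet cells: the 10 beta cell markers summed to 33368 to 85014 RPKM per library, while the 7 acinar markers summed to at most 10.6 RPKM. The beta cell markers were not level across conditions, as given beside the comparisons. In bulk cultures, fewer cells of a type and less RNA per cell cannot be told apart.

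The genes lie apart in the genome (GRCm38), with Atf4 at chr15:80255184-80257541, Atf5 at chr7:44812256-44816658, Ddit3 at chr10:127290774-127296288, Atf3 at chr1:191170296-191218039 and Cebpb at chr2:167688915-167690418. Trib3 is at chr2:152337422-152344032, Chac1 at chr2:119351229-119354381, Ppp1r15a at chr7:45522916-45526268, Sesn2 at chr4:132492032-132510501 and Ddit4 at chr10:59949669-59951834. All 10 are annotated as protein coding. Cebpb shares 312 of its 1504 exon bases with Tmem189 on the other strand, and Atf5, Ddit3 and Ppp1r15a share 82, 68 and 12 exon bases with genes on the other strand (Nup62 and Il4i1, Mars, and Tulp2). Whether the counting used strand is not given in the sources used here.

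Promoter windows of RefSeq (GRCm38.p6, 250 bases before to 50 bases after the annotated start) were searched on both strands for the sites that factors of this response bind. The C/EBP-ATF element, the composite site of ATF4 and CHOP with C/EBP partners, was searched as TGATGNAA and was found in 3 of the 10 members (Atf3, Trib3 and Chac1), against 4.51% of 27025 genes. The ATF/CREB element TGACGTCA was found in 1 member, Ppp1r15a (2.03% of genes), and the AP-1 element TGANTCA, bound by JUN and FOS dimers, in 1 member, Ddit3 (8.97% of genes). The sites of the other ER stress branches were in none: TGACGTGG, the core bound by XBP1 (0.714% of genes), and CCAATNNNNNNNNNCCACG, bound by ATF6 (0.137% of genes). The matches before the start are shown because they bear on the regulators that are compared below, and the capitals mark the matched letters. In the members no match overlapped one of another motif. In Atf3, Chac1 and Trib3 the C/EBP-ATF letters are on the strand opposite to the gene, so that the lines for Atf3 and Chac1 show their reverse complement, and the match of Trib3 lies 14 to 21 bases after the start.
Atf3: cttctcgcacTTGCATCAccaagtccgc
Chac1: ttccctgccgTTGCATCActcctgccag
Ppp1r15a: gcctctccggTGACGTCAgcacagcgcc
Ddit3: cgcgcgcaTGACTCActcacctcct
The windows are chr1:191183426-191183453 (minus strand), chr2:119351039-119351066 (plus), chr7:45526263-45526290 (minus) and chr10:127290543-127290567 (plus). The matched letters stand at positions -110 to -103, -193 to -186, -12 to -5 and -242 to -236 from the start given by RefSeq. For Atf3 that start lies inside the gene span given above, and the region before the start of that span was not searched. These are matches of letters, and no binding was measured. The 2 members that share the C/EBP-ATF letters before their start, Atf3 and Chac1, differed in how they moved, as given below.

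In the control condition, Ad-LacZ with DMSO, the RNA levels spanned from 2.66 ± 1.11 RPKM for Atf3 to 153 ± 25.2 RPKM for Atf5 (SD, n = 4). Atf5, a close relative of ATF4 that is also controlled in translation, and Atf4 (116 ± 20.0 RPKM) were highest, and their ranges overlapped. Chac1, an enzyme that degrades glutathione, followed with 59.6 ± 13.4 RPKM, below every Atf4 value. Sesn2, which restrains mTORC1, had 36.9 ± 7.01 RPKM, below every Chac1 value. From Sesn2 down through Ddit4, Cebpb, Ppp1r15a, Trib3 and Ddit3, each gene's range overlapped that of the next, from 36.9 to 9.23 RPKM, and only Atf3 lay below all values of its neighbour. Ddit3 was thus the ninth of the 10 in the control cells. In the libraries labelled Ad-Cre it was the third, at 63.5 ± 32.3 RPKM (SD, n = 4), while Atf5 and Atf4 remained first and second.

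**Figure D1:**
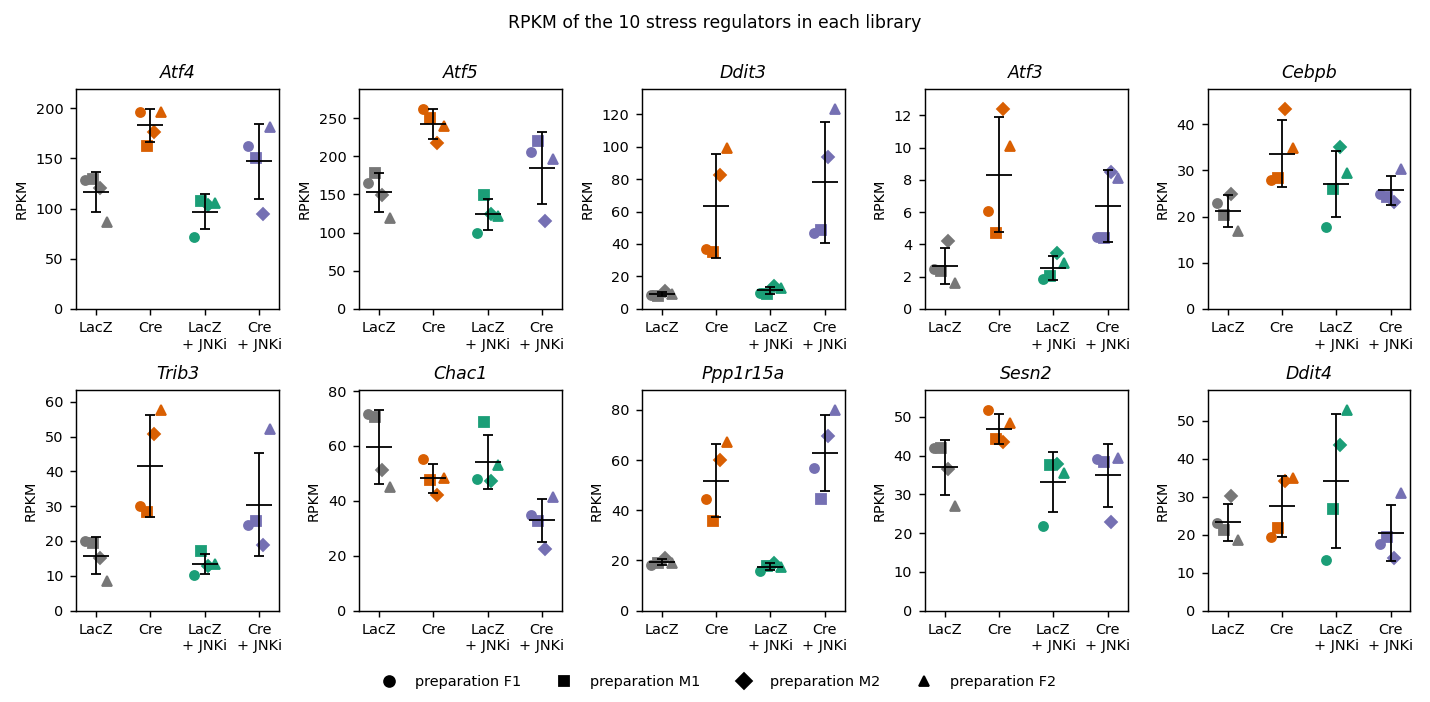
RPKM of each of the 10 genes (vertical axes, linear and starting at 0) in the 4 conditions, with 1 symbol per library, its shape giving the preparation, and black bars for mean ± SD (n = 4; JNKi, JNK inhibitor). Ddit3 sits between 8.10 and 11.0 RPKM in Ad-LacZ and between 35.3 and 98.9 RPKM in Ad-Cre, whereas Chac1 does not rise.

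The first comparison asked which of these regulators differ when Cre is delivered to Grp78 flox/flox cells. Of the 10, 7 rose from the Ad-LacZ libraries to those labelled Ad-Cre with limma's Benjamini-Hochberg adjusted p under 0.05, and none was lower. Over all 11590 genes tested, 7.29% were called higher and 16.9% were called in either direction. The rises were those of all 5 transcription factors, Ddit3, Atf3, Atf5, Atf4 and Cebpb, and of the feedback genes Ppp1r15a and Trib3. Sesn2, Ddit4 and Chac1 did not pass. The same 7 met the study's thresholds as read here (unadjusted p under 0.05 and a fold change over 1.5), which 5.00% of all genes met in the upward direction. Among the 10, the same 7 were those whose scaled values did not overlap between the groups, as in 24.9% of all genes. The median log2 fold change of the 10 was 0.66, beside -0.01 over all genes.

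Ddit3, which encodes CHOP, a factor known for its part in stress-induced cell death, moved most. It was 8.36, 8.10, 11.0 and 9.43 RPKM in the Ad-LacZ libraries of F1, M1, M2 and F2, and 37.1, 35.3, 82.8 and 98.9 RPKM in the libraries labelled Ad-Cre of the same preparations. Every library labelled Ad-Cre was above every Ad-LacZ library, with the Ad-Cre values falling in a lower pair (F1 and M1) and a higher pair (M2 and F2). The log2 fold change was 2.52 ± 0.27 (SE, 95% interval 1.90 to 3.13, adjusted p = 0.00143 by limma), a 5.72-fold difference. The exact two-sided permutation test gave p = 0.0286, the smallest that 4 libraries against 4 allow. That smallest p was also reached by the other 6 called members.

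Atf4 was 129, 129, 120.3 and 87.0 RPKM in Ad-LacZ and 197, 162, 176 and 196 RPKM in the libraries labelled Ad-Cre (F1, M1, M2, F2). The groups did not overlap, and the log2 fold change was 0.65 ± 0.17 (SE, adjusted p = 0.0352 by limma). Atf5 was 165, 177, 149.8 and 119 RPKM in Ad-LacZ and 262, 250.4, 217 and 239.7 RPKM in the libraries labelled Ad-Cre. Its log2 fold change was close to that of Atf4, at 0.67 ± 0.19 (SE, adjusted p = 0.0426 by limma). Both calls were lost when any 1 preparation was left out (limma's adjusted p = 0.0646 to 0.173 over these 8 fits), with quantile normalization (0.0564 and 0.094) and without the filter on low values (0.0612 and 0.0771).

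Atf3, a bZIP factor induced by many stresses, was the lowest member throughout. It was 2.47, 2.36, 4.22 and 1.60 RPKM in Ad-LacZ and 6.05, 4.69, 12.4 and 10.1 RPKM in the libraries labelled Ad-Cre. Its groups did not overlap either, with a log2 fold change of 1.31 ± 0.24 (SE, adjusted p = 0.0107 by limma). Cebpb, a C/EBP factor that pairs with ATF4 and CHOP, was 23.0, 20.3, 24.8 and 16.9 RPKM in Ad-LacZ and 27.8, 28.4, 43.4 and 34.8 RPKM in the libraries labelled Ad-Cre. Its log2 fold change of 0.62 ± 0.13 (SE, adjusted p = 0.0162 by limma) was the smallest of the 7.

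Of the effectors, Ppp1r15a, which encodes the eIF2 phosphatase subunit GADD34, had the least spread among controls. It was 18.0, 18.9, 21.0 and 19.0 RPKM in Ad-LacZ and 44.4, 35.6, 59.9 and 67.3 RPKM in the libraries labelled Ad-Cre. The log2 fold change was 1.34 ± 0.15 (SE, adjusted p = 0.00155 by limma), and the rise was at least 1.88-fold in RPKM in each preparation. Trib3, a pseudokinase that restrains ATF4 and CHOP activity, was 20.1, 19.3, 15.2 and 8.64 RPKM in Ad-LacZ and 30.1, 28.3, 50.7 and 57.6 RPKM in the libraries labelled Ad-Cre. The preparation with the lowest control value, F2, had the highest value under Ad-Cre. The log2 fold change was 1.33 ± 0.29 (SE, adjusted p = 0.0167 by limma).

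The 3 members that did not pass act on metabolism and growth signalling. Chac1 was 71.5, 70.5, 51.2 and 45.2 RPKM in Ad-LacZ and 55.2, 47.5, 42.0 and 48.2 RPKM in the libraries labelled Ad-Cre. Its values overlapped, and its log2 fold change was -0.28 ± 0.22 (SE, 95% interval -0.77 to 0.21, adjusted p = 0.4 by limma). Sesn2 was 41.9, 42.1, 36.6 and 27.1 RPKM in Ad-LacZ and 51.7, 44.3, 43.4 and 48.4 RPKM in Ad-Cre, with a log2 fold change of 0.35 (95% interval -0.06 to 0.76, limma's adjusted p = 0.215). Sesn2 was higher in 4 of 4 preparations, and its RPKM groups did not overlap, but its scaled values did. Ddit4, which encodes REDD1, another restraint on mTORC1, had 18.6 to 30.1 RPKM in Ad-LacZ and 19.3 to 34.8 RPKM in Ad-Cre, with a log2 fold change of 0.20 (95% interval -0.17 to 0.58, limma's adjusted p = 0.429).

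Set against Atf4 RNA in the same library, the members diverged, which is given as a description without a test. Ddit3 was 0.0819 ± 0.022 of the Atf4 RPKM in Ad-LacZ and 0.345 ± 0.165 in the libraries labelled Ad-Cre (SD, n = 4). Chac1 went the other way, from 0.511 ± 0.0592 to 0.264 ± 0.0262 of the Atf4 RPKM, with no overlap between the groups (0.426 to 0.556 against 0.239 to 0.293). With the inhibitor the Chac1 ratio was 0.567 ± 0.104 in Ad-LacZ and 0.225 ± 0.0104 in Ad-Cre.

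With the preparation as a block, 7 members were again called, while 34.4% of all genes were. Leaving out a preparation changed the count: 4 members were called without F1, 4 without M1, 3 without M2 and 2 without F2. Over all genes, 549, 488, 1007 and 198 were called in these fits, beside 1955 with all preparations. Ddit3 and Ppp1r15a were called in each of these fits, and in all the alternatives run for this comparison, with an adjusted p of at most 0.0233 and 0.0247.

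**Figure D2:**
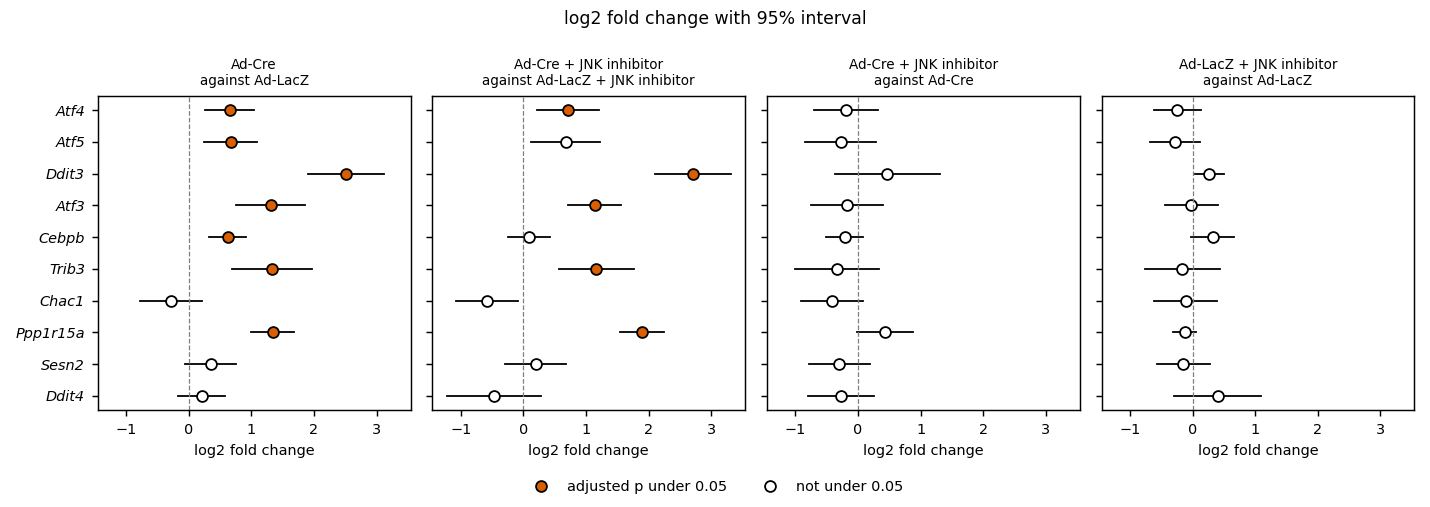
log2 fold change (horizontal axis) of the 10 genes with 95% intervals from limma in the 4 comparisons; orange points have an adjusted p under 0.05. In the 2 panels on the left, of virus, Ddit3 lies at 2.52 and 2.71, while in the 2 panels on the right, of the inhibitor, no member has an adjusted p under 0.05.

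The rise was uneven between preparations. In RPKM, Ddit3 was 4.44 times as high in the library labelled Ad-Cre as in Ad-LacZ in F1 and 4.35 times in M1, but 7.52 times in M2 and 10.5 times in F2. Trib3 had ratios of 1.49, 1.47, 3.33 and 6.66, and Atf3 of 2.45, 1.99, 2.94 and 6.32, in the same order. Atf4 and Atf5 had a narrower span, from 1.25 to 2.26 and from 1.41 to 2.01. F2 gave the largest ratio for all 10 members, including Sesn2 (1.78), Ddit4 (1.87) and Chac1 (1.07). Markers of other cells moved with this: the 6 stellate cell and fibroblast markers summed to 21.8 and 31.4 RPKM in the libraries labelled Ad-Cre of F1 and M1, and to 676 and 175 RPKM in those of M2 and F2. The 8 macrophage markers summed to 70.3, 92.0, 214 and 183 RPKM, and the 10 beta cell markers to 84543, 71203, 33563 and 47454 RPKM, in the order F1, M1, M2, F2. Their part in the uneven rise was not tested. Between the groups as a whole, none of the 10 beta cell markers had a log2 fold change above 0 (median -0.86), and 2 were lower at limma's adjusted p under 0.05, or 7 with the block. All 7 macrophage markers tested had one above 0 (median 0.88), and 1 was higher at that threshold, or 4 with the block. Their part in the calls of the members was not tested. The beta cell sums overlapped (52128 to 85014 RPKM in Ad-LacZ and 33563 to 84543 RPKM in Ad-Cre). The sums of stellate cells overlapped too (23.5 to 105 RPKM and 21.8 to 676 RPKM), as did those of macrophages (70.8 to 80.4 RPKM and 70.3 to 214 RPKM).

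**Figure D3:**
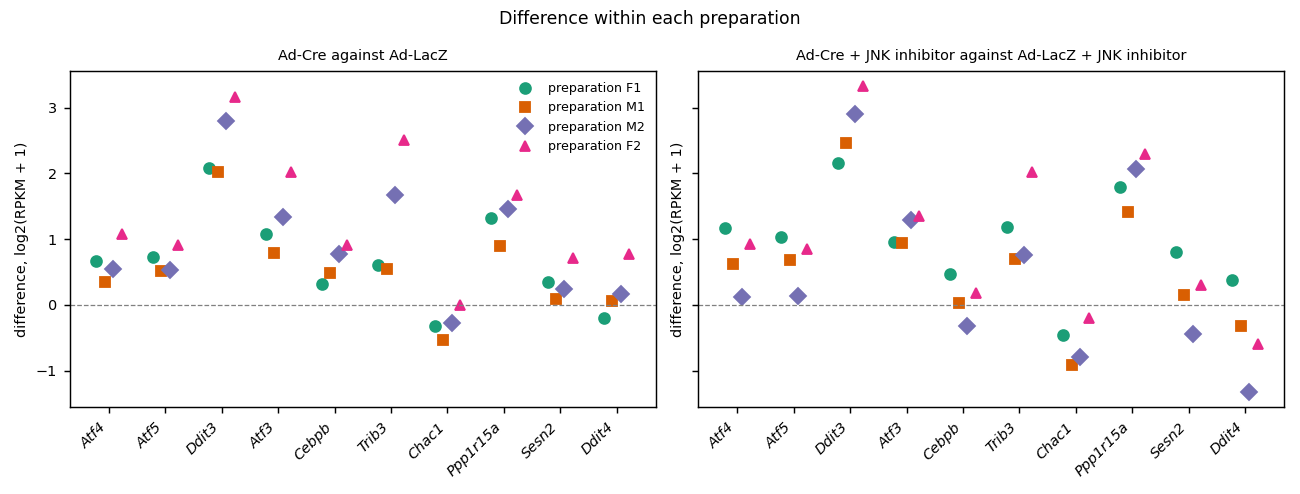
Difference in log2(RPKM + 1) after TMM scaling within each preparation (vertical axis) for the 10 genes, without the inhibitor on the left and with it on the right, 1 symbol per preparation. For Ddit3 and Ppp1r15a all 4 symbols lie above 0 in both panels (for Ddit3 from 2.02 to 3.16 and from 2.16 to 3.33). For Chac1 none lies above 0, but F2 without the inhibitor is level at -0.002, and its ratio in unscaled RPKM is 1.07.

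The same contrast of virus was made with the JNK inhibitor in both arms. Of the 10 members, 5 were higher in the Ad-Cre + JNK inhibitor libraries than in the Ad-LacZ + JNK inhibitor libraries (Ddit3, Ppp1r15a, Trib3, Atf3 and Atf4) and none was lower. This is set beside all genes, where 10.1% of 11598 genes were called higher and 20.6% in either direction. The median log2 fold change of the 10 was 0.69, beside -0.03 over all genes. The scaled values did not overlap in 5 members (Ddit3, Ppp1r15a, Trib3, Atf3 and Chac1), as in 26.1% of all genes. Ddit3 was 9.67, 8.88, 14.1 and 12.7 RPKM in Ad-LacZ + JNK inhibitor and 46.6, 48.4, 93.8 and 124 RPKM in Ad-Cre + JNK inhibitor (F1, M1, M2, F2). This was a log2 fold change of 2.71 ± 0.27 (SE, adjusted p = 0.0005 by limma), again with a lower pair and a higher pair. Ppp1r15a was 15.7, 17.7, 19.0 and 17.2 RPKM against 56.9, 44.7, 69.4 and 79.8 RPKM, a log2 fold change of 1.89 ± 0.16 (SE, adjusted p = 0.000262 by limma). Trib3 and Atf3 had log2 fold changes of 1.16 ± 0.27 (SE) and 1.14 ± 0.19 (SE), with adjusted p of 0.0158 and 0.00457 from limma.

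Markers of the islet cell types moved in this comparison too. Of the 10 beta cell markers 4 were lower by limma's adjusted p, or 7 with the block, where 1 was higher (median log2 fold change -0.84). All 6 alpha cell markers (median 0.54) and all 3 delta cell markers (0.85) lay above 0, with 0 called, or 3 and 2 with the block, and the single PP cell marker was called higher (0.92). Of the 5 stellate cell and fibroblast markers tested none lay above 0 (median -1.23), and 4 were lower with the block. Their part in the values of the members was not tested.

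Atf4 was at the threshold under the inhibitor. It was 71.1, 107, 103 and 106 RPKM in Ad-LacZ + JNK inhibitor and 162, 150.4, 94.4 and 182 RPKM in Ad-Cre + JNK inhibitor, and the M2 library fell among the controls. The log2 fold change was 0.71 ± 0.22 (SE, adjusted p = 0.0487 by limma, exact permutation p = 0.0571). Atf5, with the like pattern, had 0.68 ± 0.24 (SE, adjusted p = 0.0789 by limma), an adjusted p of 0.0329 with the block, and 0.90 (adjusted p = 0.0062) without the Ad-Cre + JNK inhibitor library of M2. Cebpb, at 27.1 ± 7.23 and 25.6 ± 3.20 RPKM (SD, n = 4), had 0.09 (95% interval -0.25 to 0.42, limma's adjusted p = 0.715), and Sesn2 and Ddit4 also did not pass.

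Chac1 was lower in each preparation: 47.8, 68.7, 47.4 and 52.9 RPKM in Ad-LacZ + JNK inhibitor against 34.99, 32.8, 22.5 and 41.4 RPKM in Ad-Cre + JNK inhibitor. The groups did not overlap (exact permutation p = 0.0286). The log2 fold change was -0.59 ± 0.22 (SE, 95% interval -1.08 to -0.09), with limma's adjusted p = 0.0879, and the call turned on the fit. The adjusted p was 0.0365 with the preparation as a block, 0.0281 on RPKM as deposited and 0.0119 with quantile normalization.

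With the block, 7 members were called, where 24.8% of all genes were: Atf5 joined the 5 that were higher, and Chac1 was lower. The count was 3 without F1, 3 without M1, 6 without M2 and 2 without F2, and Ddit3 and Ppp1r15a were in each of them. Over all genes, the calls in these fits were 1268, 451, 3158 and 323, beside 2393 with all preparations. The count of members was 6 without the Ad-Cre + JNK inhibitor library of M2 alone, 4 without that of F2 alone, and 4 without the Ad-LacZ + JNK inhibitor library of F1 alone. There, 3979, 1440 and 1828 of all genes were called.

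The study sequenced the inhibitor cultures to find what blocking JNK does to expression in cells given Cre, so the inhibitor was next compared with DMSO among the libraries labelled Ad-Cre. No member was called by limma, of 11503 genes tested (0% of all genes had an adjusted p under 0.05), and none of the 10 had an unadjusted p under 0.05, against 8.29% of all genes. The fold changes of the members were small in both directions, with a median of -0.24 beside -0.01 over all genes. The spread between preparations was wide in this comparison without a block. For Ddit3 the log2 fold change was 0.47 with a 95% interval of -0.37 to 1.31, for Ppp1r15a 0.43 with -0.02 to 0.88, and for Atf4 -0.20 with -0.71 to 0.32.

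With the preparation as a block, 6.55% of all genes were called, and 2 members, Ddit3 and Ppp1r15a, were both higher with the inhibitor. Ddit3 was 1.25, 1.37, 1.13 and 1.25 times as high in RPKM in the inhibitor library of F1, M1, M2 and F2, and Ppp1r15a was 1.28, 1.25, 1.16 and 1.19 times as high. The inhibitor library was above its own DMSO library in each preparation for both genes. The blocked log2 fold changes were 0.47 ± 0.07 (SE, adjusted p = 0.0219 by limma) for Ddit3 and 0.43 ± 0.06 (SE, adjusted p = 0.0244 by limma) for Ppp1r15a. A rise with the inhibitor was not particular to these genes. Of 20 targets of ATF6 and XBP1, followed further below, 5 were higher in this blocked fit and 0 lower, with 0 called without the block. Of those 20, 18 had a log2 fold change above 0 (median 0.32). Marker sums of other islet cells had the same direction in each preparation: the delta cell markers went from 2551 to 3843 RPKM in F1, 2045 to 2817 in M1, 2481 to 6831 in M2 and 1134 to 2466 in F2, and the alpha cell sums were higher with the inhibitor in 4 of 4 as well. All 6 alpha and all 3 delta cell markers had a log2 fold change above 0 (medians 0.42 and 0.85), with 0 called by limma and 1 of each with the block. Their part in the rise of Ddit3 and Ppp1r15a was not tested. Without the block, on RPKM as deposited, the fold changes of Ddit3 and Ppp1r15a were 0.32 and 0.28, while the median of all genes then stood at -0.14.

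The other 8 members were lower or nearly level within preparations. Chac1, Atf5, Sesn2, Cebpb and Ddit4 were lower with the inhibitor in 4 of 4 preparations, with blocked adjusted p of 0.0719, 0.175, 0.14, 0.281 and 0.36 from limma. The largest falls were those of M2, whose inhibitor library had 0.374 of the Trib3 RPKM, 0.410 of Ddit4, 0.526 of Sesn2, 0.529 of Atf5 and 0.537 of Atf4 in its DMSO library. In the same M2 library, Ddit3 and Ppp1r15a were 1.13 and 1.16 times as high. That library also had the highest mitochondrial rRNA, and alpha and delta cell markers that summed to 27354 and 6831 RPKM, against 11154 to 23446 RPKM and 1134 to 3843 RPKM in the other 15. Their part in these falls was not tested. Without that library, the log2 fold change of Atf4 turned from -0.20 to 0.02.

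In the libraries labelled Ad-LacZ, where no Cre was given, no member was called between inhibitor and DMSO, as were 0.197% of 11657 genes without the block and 0.395% with it. Ddit3 was the only one with an unadjusted p under 0.05 (6.00% of all genes). It was 9.67, 8.88, 14.1 and 12.7 RPKM with the inhibitor against 8.36, 8.10, 11.0 and 9.43 RPKM without it. It was higher in 4 of 4 preparations, though the groups overlapped. The log2 fold change was 0.27 ± 0.11 (SE, unadjusted p = 0.0317 and adjusted p = 0.728 from limma). Ppp1r15a was lower in 4 of 4, at 17.4 ± 1.38 against 19.2 ± 1.26 RPKM (SD, n = 4), with a log2 fold change of -0.13 (95% interval -0.31 to 0.06, limma's adjusted p = 0.999). In RPKM before scaling, the inhibitor library of F1 was the lowest of its group for 8 members. Among them were Atf4 (71.1 RPKM against 103 to 107 RPKM), Sesn2 (21.8 against 35.6 to 37.7 RPKM) and Ddit4 (13.3 against 26.8 to 52.7 RPKM). Its RPKM sum, 290885, was the lowest of all libraries. After TMM scaling it was still lowest for Atf4, Cebpb, Sesn2 and Ddit4, but not for Atf5, Atf3, Trib3 and Ppp1r15a. Markers of other cells moved in this comparison as well: the macrophage markers summed to 139 to 320 RPKM with the inhibitor and 70.8 to 80.4 RPKM without it, and the stellate cell and fibroblast markers to 43.6 to 507 RPKM and 23.5 to 105 RPKM. Their part in the values of the members was not tested.

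Whether the effect of virus differed with the inhibitor was tested as an interaction over all 16 libraries and 12274 genes. No member passed the adjusted p, nor did any gene (0% of all genes), and 2 members had an unadjusted p under 0.05, against 3.33% of all genes. Ppp1r15a had an interaction of 0.57 on the log2 scale (SE 0.21, 95% interval 0.12 to 1.02, unadjusted p = 0.0168 and adjusted p = 1.00 from limma), its rise being larger under the inhibitor. Cebpb had -0.52 ± 0.19 (SE, 95% interval -0.93 to -0.12, unadjusted p = 0.0152 and adjusted p = 1.00 from limma). For Cebpb the Ad-LacZ + JNK inhibitor libraries had 17.7, 26.0, 34.98 and 29.5 RPKM and the Ad-Cre + JNK inhibitor libraries 25.0, 24.2, 23.1 and 30.3 RPKM. Within preparations, Cebpb was higher with the inhibitor in 3 of 4 pairs of Ad-LacZ libraries and lower in 4 of 4 pairs of Ad-Cre libraries. None of the 7 macrophage and 5 stellate cell and fibroblast markers tested had an interaction above 0 (medians -0.76 and -2.36), while all 6 alpha and 3 delta cell markers did (0.53 and 0.83), with 0 of them called by limma. Their part in these values was not tested. For Ddit3 the interaction was 0.21 with a 95% interval of -0.65 to 1.07. The interaction of virus and sex label called no member, with estimates of -0.02 to 0.48 and adjusted p of 1.00 from limma, and it compares labels that the sex-linked genes contradict in both M2 and F2.

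The members did not vary together as 1 group. After the mean of each condition was taken away, Atf4, Atf5, Sesn2 and Chac1 rose and fell together over the 16 libraries, with Pearson's r between 0.826 and 0.966 for the 6 pairs. Ddit3, Atf3 and Ppp1r15a formed another set, with r of 0.784, 0.780 and 0.600. Between the sets all 12 values were below 0, from -0.646 (Atf5 and Ddit3) to -0.0672 (Chac1 and Ppp1r15a). Without the Ad-Cre + JNK inhibitor library of M2 and the Ad-LacZ + JNK inhibitor library of F1, the first set had 0.853 to 0.955, Atf5 with Ddit3 was -0.651, and the values between the sets ran from there to 0.0880 (Atf4 and Ppp1r15a). Trib3 was related to both, with 0.664 to Atf4 and 0.436 to Ppp1r15a. These values are descriptions, since the 4 libraries of a preparation share their cells and the grouping was made after the values were seen.

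**Figure D4:**
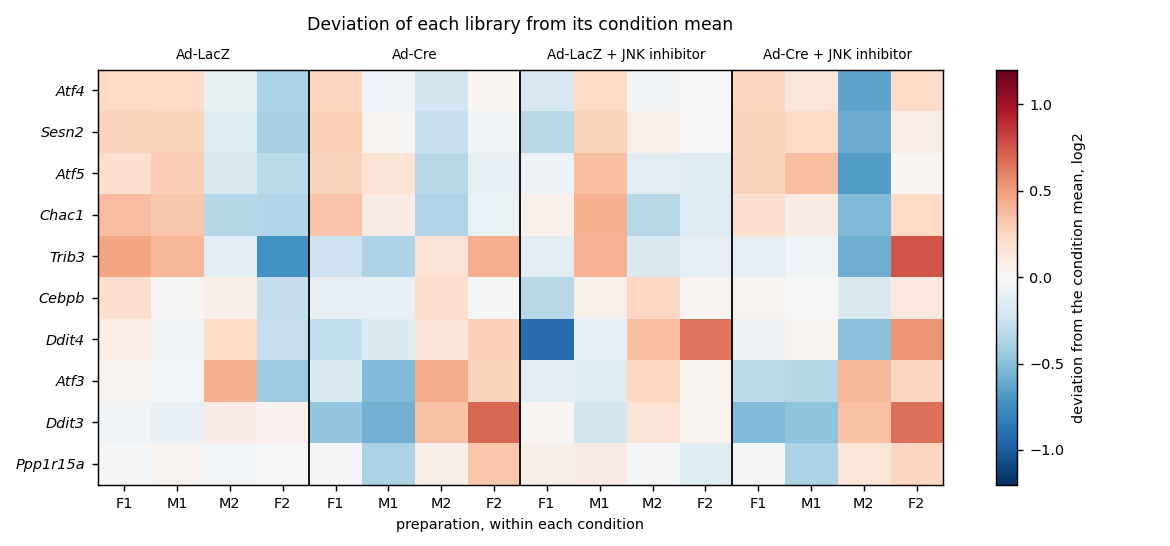
Deviation of each library (columns, by condition and preparation) from the mean of its condition in log2(RPKM + 1) after TMM scaling, for the 10 genes (rows, ordered after the values were seen). The Ad-Cre + JNK inhibitor library of M2 is low for Atf4, Sesn2, Atf5, Chac1 and Trib3 and high for Atf3, Ddit3 and Ppp1r15a.

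Over the 16 libraries and 12274 genes, the pattern most like that of Ddit3 was Arhgef10 (Pearson's r = 0.984, Spearman's rho = 0.962), a guanine nucleotide exchange factor. Gzmm (0.982), 2210409E12Rik (0.979, a processed pseudogene that shares exon bases with Coil, so that its value is uncertain), C1qtnf1 (0.977) and Ccdc134 (0.975) followed. For Atf4 the 5 nearest were Stx5a (0.975), Sec24d (0.972), Spryd3 (0.962), Gmppb (0.962) and Amigo3 (0.959). Stx5a and Sec24d belong to transport between ER and Golgi, and Gmppb shares 937 of its 2785 exon bases with Rnf123 on the other strand. C1qtnf1 shares 642 of its 3131 exon bases with an antisense gene. The 5 genes of Ddit3 and the 5 of Atf4 had none in common. With the condition means taken away, Stx5a still had r = 0.982 to Atf4, and Arhgef10 had 0.863 to Ddit3. For the other members the nearest was Prrc1 for Atf5 (0.967), Stbd1 for Atf3 (0.958), Rab11fip5 for Cebpb (0.916), Angptl6 for Trib3 (0.952), Pck2 for Chac1 (0.951), 2210409E12Rik for Ppp1r15a (0.986), Slc9a8 for Sesn2 (0.962) and Kctd5 for Ddit4 (0.909).

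Upstream of ATF4 stand the eIF2 kinases, which were followed with other genes of the eIF2 machinery. Of 20 such genes, all measured, 3 rose and 2 fell between Ad-LacZ and Ad-Cre at limma's adjusted p under 0.05, and 15 did not pass, where 16.9% of all genes were called. The median log2 fold change of the 20 was 0.05, beside -0.01 over all genes. The rise of Dnajc3, which encodes the PERK inhibitor p58IPK, was the largest, from 81.0 ± 4.80 to 241 ± 52.5 RPKM (SD, n = 4; log2 fold change 1.54 ± 0.16, SE, adjusted p = 0.0013 by limma). Eif2ak3, which encodes PERK, rose from 16.8 ± 1.54 to 25.9 ± 3.23 RPKM (0.59 ± 0.10, SE, adjusted p = 0.00914 by limma), and Eif2b4, a subunit of the exchange factor of eIF2, had 0.44 (adjusted p = 0.0344). Eif2ak2, which encodes PKR, and Eif2a fell by 0.36 and 0.40 (adjusted p of 0.0453 and 0.0369 from limma). The subunit that the kinases phosphorylate is not encoded by Eif2a but by Eif2s1, which did not pass (-0.29, adjusted p = 0.171 by limma). The remaining kinase genes, Eif2ak1 (HRI) and Eif2ak4 (GCN2), named here to complete the set of kinases, had -0.06 and -0.11 and did not pass. With the block, 9 of the 20 were called (34.4% of all genes), and 1 to 3 were called when a preparation was left out (1 without F1, M1 or F2, and 3 without M2). In all 4 of these fits lower calls were 0. With the inhibitor in both arms Dnajc3 (1.88), Eif2b4 (0.78) and Eif2ak3 (0.71) were higher and none of the 20 was lower, so that 3 of 20 were called where 20.6% of all genes were. In the blocked fit of that comparison 5 were higher and 0 lower, where 24.8% of all genes were called.

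Downstream, a list of 45 target genes of ATF4 and CHOP was followed, of which 44 were in the table and 43 were tested. From Ad-LacZ to Ad-Cre 10 rose and 1 fell at limma's adjusted p under 0.05. These 11 calls among 43 stand beside 16.9% of all genes. The median log2 fold change was 0.31, beside -0.01 over all genes. The largest rises were those of Sqstm1, the autophagy receptor p62 (195 ± 27.4 to 606 ± 48.0 RPKM, log2 fold change 1.63, limma's adjusted p = 0.00111), Gdf15, a secreted stress factor (3.44 ± 1.70 to 11.4 ± 3.29 RPKM, 1.52, adjusted p = 0.00555), Nupr1, a stress cofactor (1.01, adjusted p = 0.0181), and Bbc3, which encodes the death factor PUMA (0.79, adjusted p = 0.0154). These 4 also answer to other regulators, such as NRF2 or p53. The other 6, named after their values were seen, are genes of serine synthesis, tRNA charging or export and a transaminase: Psat1 (0.70), Xpot (0.66), Nars (0.54), Wars (0.52), Aars (0.49) and Gpt2 (0.46), with adjusted p of 0.0147 to 0.0492 from limma. The gene that fell was Adm2 (by 0.58, adjusted p = 0.0412 from limma).

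Asns, which encodes asparagine synthetase and is often used as a readout of ATF4, did not follow Ddit3. It was 130 ± 13.1 RPKM in Ad-LacZ and 105 ± 14.7 RPKM in the libraries labelled Ad-Cre (SD, n = 4), with a log2 fold change of -0.31 (adjusted p = 0.291 by limma without the block and 0.0389 with it). Pck2 and Chac1, whose levels ran together across the libraries, had -0.27 and -0.28. With the block 23 of the 43 targets were called, 18 higher and 5 lower (34.4% of all genes). The count was 3 without F1, 2 without M1, 5 without M2 and 3 without F2, and 7 without the low filter, where more genes were tested. With the inhibitor in both arms 8 of 43 were higher and 1 was lower, a share near the 20.6% of all genes. Sqstm1 had 2.06, Gdf15 1.36, Nupr1 1.32 and Psat1 1.14, and Cth, which makes cysteine, fell by 0.60 (adjusted p = 0.0226 by limma). In the blocked fit of the viruses under the inhibitor, 12 of the 43 were higher and 2 were lower, where 24.8% of all genes were called. Between inhibitor and DMSO no target was called in either virus group, and with the block 4 of 42 were higher in Ad-Cre (6.55% of all genes).

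**Figure D5:**
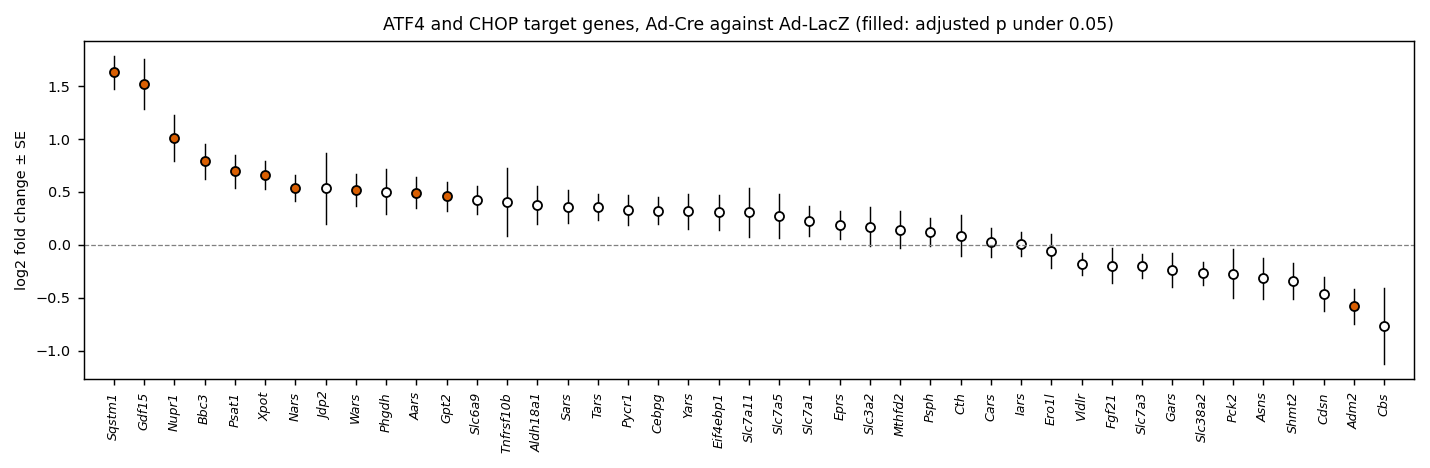
log2 fold change ± SE from limma of the 43 tested target genes of ATF4 and CHOP (vertical axis, with the genes along the horizontal axis in order of fold change), libraries labelled Ad-Cre against Ad-LacZ; orange points have an adjusted p under 0.05. Sqstm1 (1.63) and Gdf15 (1.52) lead, and Asns (-0.31) lies among the lower targets.

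Of 22 bZIP genes whose proteins can pair with ATF4, CHOP or ATF3, 14 passed the filter. Junb (0.70, limma's adjusted p = 0.0377) and Fos (0.46, adjusted p = 0.0209) were higher with Ad-Cre and Atf2 was lower (by 0.64, adjusted p = 0.00694). These calls, 2 higher and 1 lower of 14, stand beside 16.9% of all genes. With the block, 4 were higher and 2 lower, beside 34.4% of all genes. With the inhibitor in both arms none was higher, and Mafa, a beta cell factor (-1.71, adjusted p = 0.0175), and Atf2 (-0.68, adjusted p = 0.0188) were lower by limma. These 2 calls of 14 stand beside 20.6% of all genes. Without the inhibitor the log2 fold change of Mafa was as low, at -1.67 (395 ± 99.6 to 145 ± 91.0 RPKM, SD, n = 4), with an adjusted p of 0.0569 by limma, or 0.00387 with the block. Jun, named because it is the factor that JNK phosphorylates, was 21.9 ± 6.72 RPKM in Ad-Cre and 9.57 ± 2.58 RPKM with the inhibitor (SD, n = 4; log2 fold change -0.96, adjusted p = 0.211 by limma without the block and 0.00888 with it). Jun was lower with the inhibitor in Ad-LacZ as well, at 20.8 ± 5.95 and 9.68 ± 4.22 RPKM (log2 fold change -1.07, adjusted p = 0.175 by limma without the block and 0.0339 with it). Between inhibitor and DMSO, the block called 2 of the 14 lower in Ad-Cre and 1 in Ad-LacZ, and 0 higher. The targets of the other ER stress factors, ATF6 and XBP1, are set beside the members. This list of 20 also holds Xbp1 and Atf6 themselves and the floxed gene Hspa5. It holds Dnajc3 too, which is counted among the eIF2 genes above as well. With Ad-Cre 17 of 20 rose and none fell, both without and with the inhibitor, where 7.29% and 10.1% of all genes were called higher. Their median log2 fold changes were 1.52 and 1.90, against 0.66 and 0.69 for the 10 members. The 4 that rose most without the inhibitor were Derl3 (1.92 ± 0.527 to 93.7 ± 41.4 RPKM), Creld2 (52.7 ± 3.35 to 670.3 ± 243 RPKM), Pdia4 (109 ± 13.5 to 909 ± 297 RPKM) and Sdf2l1 (58.9 ± 18.9 to 431 ± 83.5 RPKM; SD, n = 4), which serve protein folding and degradation in the ER. Their log2 fold changes were 4.92, 3.58, 2.99 and 2.88, with adjusted p of 7.35e-05 to 0.000846 from limma, against 2.52 for Ddit3. Xbp1 and Atf6 themselves, the genes of the factors, had -0.08 and -0.17 and did not pass.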

How the data were processed

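Expression was measured by poly(A) RNA sequencing in 16 libraries of mouse islet cells. The authors deposited RPKM values per gene. GRCm38 is named in the submitters' processing notes and STAR in the methods, while the annotation, the gene lengths and the step to RPKM are not given in the sources used here. 3 further columns match no label and were not used. RPKM was scaled by TMM factors (trimming 30% of ratios and 5% of levels) and tested as log2(RPKM + 1) with limma (version 3.58.1, R 4.3.3), on genes over 1 RPKM in at least 4 libraries of each fit and with the 8 libraries of the groups compared. P-values were adjusted over all genes tested by the Benjamini-Hochberg method, and single genes were also tested by exact two-sided permutation. RPKM holds no counts, so no count model was used. Without the block, p-values rest on the spread between the libraries of a group, which are taken as independent. With the block, they rest on the spread left once differences between preparations are taken out.

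The F1, M1, M2 and F2 cultures of different conditions are parallel cultures of the same islets. Deviations of same-numbered libraries from their group means correlated at 0.486 to 0.721 (Ad-Cre against Ad-LacZ), 0.645 to 0.821 (inhibitor, Ad-Cre), 0.131 to 0.826 (inhibitor, Ad-LacZ) and 0.158 to 0.663 (virus with inhibitor). Blocked fits are therefore given for the members where they change a call. For the other gene lists they are given only for some comparisons. Depth ranged from 7.73 to 25.46 M reads, with 97.7% to 99% of the low values whole within 0.1 reads of these depths, which does not recover counts for all genes.

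By rule, all 10 members were named, with up to 4 rises and 4 falls of each list past the adjusted p, Asns, and the genes with the most similar patterns (5 for Ddit3 and Atf4, 1 for the others). Named outside it, after their values were seen, were the other 6 targets that rose, Eif2ak1, Eif2ak4, Eif2s1 and Jun. So were Xbp1, Atf6, Pck2 as a target, and Mafa without the inhibitor. Members and lists were chosen with earlier results of these data known. 1 list symbol was not found among the symbols of the table. Exon overlaps are from the GENCODE annotation and promoters from RefSeq (GRCm38.p6). The scripts were tested on simulated data. Alternatives changed the pseudocount, filter, scaling, libraries in the fit, block and variance trend, and left out preparations or single libraries.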

Additional observations from a re-analysis of the deposited data

Results flagged for a closer look

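In groups of 4, a library was taken to stand apart where its gap to the nearest other, divided by the range of the group, passed Dixon's 95% critical value for 4 samples. The rule was applied to RPKM before TMM scaling. Of 40 groups of members (10 genes in 4 conditions) 3 held such a library, where chance gives about 1 in 20 for independent groups. These groups are not independent, since members such as Atf4 and Sesn2 varied together. In Ad-LacZ + JNK inhibitor, Atf4 was 71.1 RPKM in F1, where the nearest library had 103 RPKM (gap over range 0.888), and Sesn2 was 21.8 RPKM in F1, where the nearest had 35.6 RPKM (0.865). In Ad-Cre + JNK inhibitor, Sesn2 was 22.8 RPKM in M2, where the nearest had 38.2 RPKM (0.929). All 3 stood less apart on the scaled log2 values, where the rule was not run. There the deviations from the group mean (F1, M1, M2, F2) were -0.20, 0.24, -0.05 and 0.01 for Atf4. For Sesn2 they were -0.34, 0.28, 0.06 and -0.002 with Ad-LacZ, and 0.27, 0.23, -0.59 and 0.09 with Ad-Cre. In RPKM these F1 and M2 libraries were low for other members as well, 8 of 10 being at the lowest of their group in the F1 library. After scaling, Atf5, Atf3, Trib3 and Ppp1r15a were no longer lowest there. Leaving out the Ad-LacZ + JNK inhibitor library of F1 changed the count of members called between the viruses under the inhibitor from 5 to 4, and leaving out the M2 library changed it from 5 to 6. Over all genes, these fits called 1828 and 3979, beside 2393 with all libraries.

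The effect of virus differed with the inhibitor at an unadjusted p under 0.05 for 2 members, Ppp1r15a (0.57 on the log2 scale, unadjusted p = 0.0168 from limma) and Cebpb (-0.52, unadjusted p = 0.0152 from limma). The p adjusted over all genes was 1.00 by limma for both, and in limma's blocked fit 0.276 for Ppp1r15a and 0.303 for Cebpb. In the 4 preparations, the difference of Ppp1r15a within preparations ran from 0.90 to 1.67 without the inhibitor and from 1.42 to 2.30 with it, and that of Cebpb from 0.32 to 0.91 and from -0.33 to 0.46.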

How the results depend on the processing

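Ddit3 and Ppp1r15a were called between Ad-Cre and Ad-LacZ under every alternative run. The count of members called there went from 7 to between 2 and 4 when a preparation was left out, and from 5 to between 2 and 6 with the inhibitor in both arms. Over all genes, the 1955 calls of the first comparison became 198 without F2, 488 without M1, 549 without F1 and 1007 without M2. With the inhibitor in both arms, 2393 calls became 323 without F2, 451 without M1, 1268 without F1 and 3158 without M2. With the replicate block, 2 members were called between inhibitor and DMSO in Ad-Cre in place of 0. Between Ad-Cre and Ad-LacZ, the block called 23 targets in place of 11 and 9 eIF2 genes in place of 5. In the first comparison, targets called were 7 with no filter, 7 with a filter at 0.1 RPKM and 2 to 5 when a preparation was left out. The eIF2 genes called were 3 with all 16 libraries in one fit and 1 to 3 when a preparation was left out. No blocked fit was made for the interaction with the sex label.

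Signs turned only among estimates that had not passed the test, and the cause was not tested. RPKM as deposited, which moves the median of all genes to -0.116 in the interaction and -0.142 between viruses with the inhibitor, gave interactions of -0.0855 for Atf4 and -0.13 for Atf5, and for Cebpb -0.0428 between viruses with the inhibitor and 0.0105 in the interaction with the sex label. Quantile normalization gave interactions of -0.12 for Atf4, -0.11 for Atf5 and -0.0257 for Ddit3, and -0.0245 for Cebpb between viruses with the inhibitor. With a preparation or 1 library left out (the Ad-Cre + JNK inhibitor library of M2 and the Ad-LacZ + JNK inhibitor library of F1 were picked for this after seeing the data), the interaction of virus and inhibitor ran from -0.277 to 0.00553 for Atf3, -0.0703 to 0.274 for Atf4, -0.0649 to 0.242 for Atf5, -0.0117 to 0.265 for Ddit3, -0.323 to 0.0600 for Sesn2 and -0.406 to 0.0797 for Trib3. That with the sex label ran from -0.291 to 0.274 for Cebpb, -0.299 to 0.758 for Ddit3, -0.289 to 0.660 for Ddit4 and -0.477 to 1.40 for Trib3. Between inhibitor and DMSO in Ad-LacZ, Atf3 ran from -0.184 to 0.0395, Sesn2 from -0.291 to 0.0507 and Trib3 from -0.381 to 0.0359. In Ad-Cre Atf4 ran from -0.286 to 0.0183, and Cebpb between viruses with the inhibitor from -0.0375 to 0.236.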
